A study of Mus musculus with 2 samples.

Results

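The olfactory receptor genes (Olfr) and the vomeronasal receptor genes of types 1 and 2 (Vmn1r and Vmn2r) were examined for DNA double-strand break ends in mouse B cells. Members were the protein-coding genes on chromosomes 1 to 19 of the mouse build GRCm38.p6 (mm10) whose symbol begins with these names, each with 2 kb on both sides, and overlapping genes were merged. This gave 1454 of 20558 protein-coding genes (7.07%), of which 1103 were Olfr, 229 Vmn1r and 122 Vmn2r, in 1430 regions, 21 of them holding more than 1 gene. The other 12818 protein-coding regions served for comparison, after 19 that touch a receptor region were left out.

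Break ends were mapped by END-seq, in which an adapter is ligated to broken DNA ends and a read's first base gives the position of the end, its strand the side on which the DNA extends. The S-phase library came from CD43-negative splenic B cells activated for 24 to 28 h by anti-CD40 (1 µg/mL) and IL-4 (25 ng/mL), and the G1-phase library from quiescent B cells kept in culture without these agents. Both were from mice aged 4 to 8 weeks, and both sample names begin with ATR+c, which the labels do not spell out. The S-phase library held 20543572 reads on chromosomes 1 to 19 and the G1 library 26889564, and all values are scaled to these totals. With 1 library per condition there was no test and no replicate check. Ratios are S phase over G1 with 95% intervals (exact, from Poisson counts), which cover counting error only and are too narrow here, because reads share positions (each covered position of the receptor regions held 2.61 reads on average in S phase, against 3.57 in G1) and carry no molecular identifiers. Ratios therefore describe these libraries and not the conditions. The libraries differ in cell-cycle phase and in activation at once, so phase and activation cannot be told apart in any ratio given here.

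Olfactory receptors are G protein-coupled receptors that bind odorants on sensory neurons of the nose, and vomeronasal receptors bind pheromones and related cues in the vomeronasal organ. Their genes lie in large tandem clusters, each neuron selects a lone receptor allele for expression, and the unselected copies are kept in compact heterochromatin. In B cells nearly all of these receptor genes are thought to be silent, but the clusters as defined here also hold 240 other protein-coding genes. No expression was measured here.

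The sequence around annotated gene starts is shown first, so that base composition and read ends can be read together. Each window runs from 250 bases before to 50 bases after the annotated start, 5′ to 3′ on the gene's strand (RefSeq, GRCm38.p6), and capitals mark bases at which a read end was counted in either library. Shown are Vmn1r36 (chr6:66716840-66717139, minus strand) and Olfr944 (chr9:39217109-39217408, plus strand), which had the highest and lowest ratio of the well-covered receptor regions, and Vmn2r116 (chr17:23384553-23384852, plus strand), the receptor of the pheromone peptide ESP1, which was added after its values were seen. They are followed by the 2 genes inside receptor clusters with the highest local break peak in S phase, Hnrnpc (chr14:52103972-52104271, minus strand), which encodes an RNA-binding protein of pre-mRNA, and Osbp (chr19:11965594-11965893, plus strand), which encodes an oxysterol-binding protein. Both were chosen for their peaks, so their many read ends follow from the choice.
Vmn1r36: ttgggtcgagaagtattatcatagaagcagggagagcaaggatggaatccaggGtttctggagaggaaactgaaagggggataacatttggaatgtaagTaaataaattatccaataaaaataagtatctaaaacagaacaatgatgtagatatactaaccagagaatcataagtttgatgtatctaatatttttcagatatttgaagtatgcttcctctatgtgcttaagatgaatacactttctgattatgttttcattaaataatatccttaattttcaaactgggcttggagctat
Olfr944: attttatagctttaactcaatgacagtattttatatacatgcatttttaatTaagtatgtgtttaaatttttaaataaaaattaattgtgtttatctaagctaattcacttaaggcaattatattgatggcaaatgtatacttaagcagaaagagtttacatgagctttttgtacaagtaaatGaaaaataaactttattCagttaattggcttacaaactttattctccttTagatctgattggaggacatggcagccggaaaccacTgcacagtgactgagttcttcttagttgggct
Vmn2r116: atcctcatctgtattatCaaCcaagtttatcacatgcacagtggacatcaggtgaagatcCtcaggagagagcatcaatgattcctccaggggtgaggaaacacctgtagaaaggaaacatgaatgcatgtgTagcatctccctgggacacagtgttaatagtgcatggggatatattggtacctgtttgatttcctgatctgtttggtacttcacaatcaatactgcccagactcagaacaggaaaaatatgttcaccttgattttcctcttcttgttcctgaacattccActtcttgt
Hnrnpc: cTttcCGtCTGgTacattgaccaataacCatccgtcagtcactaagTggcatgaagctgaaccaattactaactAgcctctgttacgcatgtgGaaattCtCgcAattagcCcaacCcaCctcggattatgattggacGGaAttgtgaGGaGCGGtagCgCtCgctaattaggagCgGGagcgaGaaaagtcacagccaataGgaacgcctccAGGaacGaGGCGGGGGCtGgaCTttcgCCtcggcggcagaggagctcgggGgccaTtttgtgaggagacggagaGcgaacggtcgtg
Osbp: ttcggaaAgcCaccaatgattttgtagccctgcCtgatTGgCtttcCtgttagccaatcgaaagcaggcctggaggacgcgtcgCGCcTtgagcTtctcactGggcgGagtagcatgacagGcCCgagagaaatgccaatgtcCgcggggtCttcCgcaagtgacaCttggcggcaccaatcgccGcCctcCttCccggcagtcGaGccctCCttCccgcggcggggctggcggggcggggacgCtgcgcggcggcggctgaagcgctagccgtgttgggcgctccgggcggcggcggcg

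The Vmn1r36 window held 8 S-phase reads on 2 bases and 0 G1 reads, and the Olfr944 window held 2 S-phase reads on 1 base and 18 G1 reads on 4 bases. The Vmn2r116 window held 2 S-phase reads on 1 base and 10 G1 reads on 4 bases. None of these 3 windows had a base marked in both libraries. Of the 36-base words of the windows, 47.5% at Vmn1r36 and 61.1% at Vmn2r116 also occur in the window of another gene, against 0% at Olfr944, so read ends there may not be unique. The Hnrnpc window held 298 S-phase and 236 G1 reads, with 55 marked bases of which 18 were marked in both libraries. The Osbp window held 73 S-phase and 56 G1 reads on 31 marked bases. GC content was 32%, 29% and 42% in the Vmn1r36, Olfr944 and Vmn2r116 windows, against 54.3% at Hnrnpc and 67% at Osbp, where 22 and 34 CpG dinucleotides were found.

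Base composition was summarised over all start windows. Over the 1260 receptors with a RefSeq start window the median GC content was 35.7%, and 31.3% of the windows held no CpG, whereas the 15197 other protein-coding genes had a median of 57.7% and 2.82% without a CpG. The 214 other protein-coding genes inside receptor clusters with such a window had a median of 48.7% and 7.48% without a CpG. By family the median GC content was 35% for Olfr, 36% for Vmn1r and 38% for Vmn2r. Many receptor gene models cover only the coding sequence: 963 of 1260 receptor windows (76.4%) have ATG at the annotated start, against 3.45% of the other genes, and 931 of 1454 receptor genes are at most 1000 bp long with a length that is a multiple of 3. The receptor windows therefore lie mostly around the start codon, and the true transcription start may be farther upstream.

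Break ends did not pile up at receptor gene starts in either library. Within 500 bp of the annotated start the receptors had 0.386 reads per 1000000 reads (RPM) per kb in S phase, 1.00 times the level beyond 3 kb, and 0.434 RPM per kb in G1, 1.01 times that level. The other protein-coding genes rose to 4.53 times their distant level in S phase and to 3.25 times in G1. The lowest 500 bp step of the receptor profile was the one just inside the gene, with 0.345 RPM per kb in S phase and 0.385 in G1. The ratio was 0.889 (0.867 to 0.912) within 500 bp of a receptor start and 0.895 (0.884 to 0.907) beyond 3 kb, against 1.503 and 1.077 at the other genes. Because the coding models place the receptor starts inexactly, a narrow peak at varying distances upstream would be spread out in this mean.

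**Figure D1:**
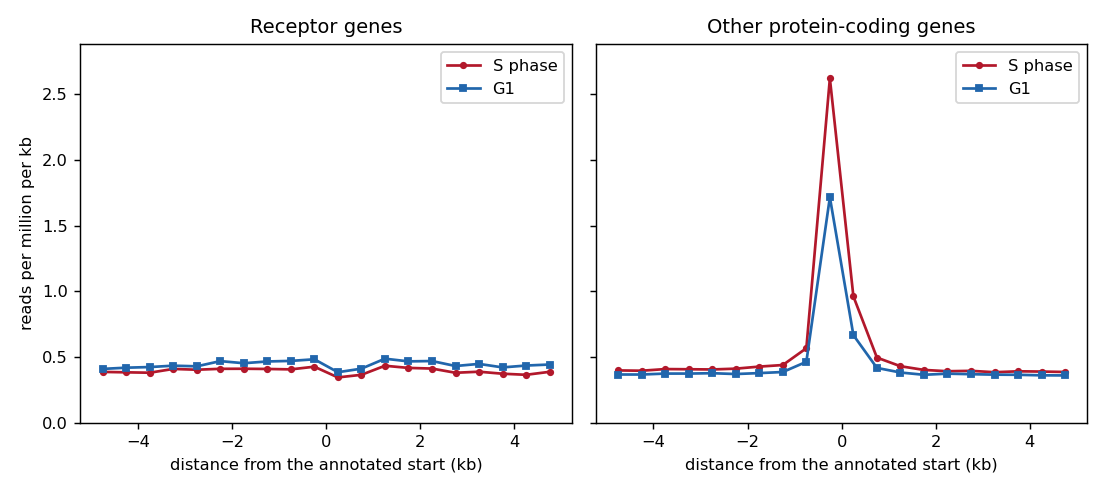
RPM per kb in 500 bp steps around the annotated start, for 1260 receptor genes (left) and 15197 other protein-coding genes (right), with S phase as circles and G1 as squares. The receptor lines stay between 0.345 and 0.434 in S phase and between 0.385 and 0.488 in G1, while the other genes reach 2.62 in S phase and 1.72 in G1 just before the start.

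Single peaks gave the same picture. A local peak was a 1 kb window holding 20 reads or more and exceeding its surroundings, the median 1 kb window within 50 kb on each side, by 10 times or more. None of the 1430 receptor regions held one in either library, which allows a share of up to 0.210%, while 17% of the other protein-coding regions held one in S phase and 11.5% in G1. Among regions of at most 10 kb, the size of most receptor regions, 0 of 1236 receptor regions held a peak, against 4.43% of other regions in S phase and 3.26% in G1. The receptor window with the highest fold over its surroundings in S phase lay at Vmn1r4 (chr6:56923001-56924000), with 51 reads or 8.5 times, and this window also lies inside the gene Nt5c3. The highest fold in G1 was at Vmn2r14 (chr5:109222001-109223000), with 59 reads or 8.43 times. At 5 times the surroundings, 19 receptor regions (1.33%) held a peak in S phase and 23 (1.61%) in G1, against 37.0% and 33.3% of the other regions.

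The receptor clusters did contain 24 windows with a local peak, 22 of them called in S phase, 15 in G1 and 13 in both, and all 24 lay at other protein-coding genes. These included Hnrnpc with 391 S-phase reads and 337 G1 reads, Osbp with 413 and 317, Zfp91, a zinc finger protein gene, with 318 and 267, and Ppp2r1a, which encodes the scaffold subunit of protein phosphatase 2A, with 264 and 217. Peaks were at 0.405 per Mb in the clusters and 1.252 per Mb in the remaining sequence in S phase, and at 0.276 and 0.904 per Mb in G1.

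Receptor regions had a density like that of other genes in S phase, a higher one in G1 and a lower ratio. Their median density was 0.395 RPM per kb in S phase and 0.447 in G1, against 0.393 and 0.362 in the other protein-coding regions. Summed over the 1430 regions there were 96251 S-phase and 141345 G1 reads, a ratio of 0.891 (0.884 to 0.899), and 0.887 (0.874 to 0.899) when each covered position was counted once. The other protein-coding regions had a ratio of 1.05. The median log2 ratio was -0.16 over the 1424 receptor regions with a mean of at least 10 reads and 0.14 over 12804 other regions, and 62.6% of the receptor regions lay below 0, against 30.3% of the others. The receptor regions are short, and their median count was 44 in S phase and 67 in G1, so most single regions are measured coarsely. Fewer breaks per cell, fewer broken cells and fewer copies of the DNA cannot be told apart in these counts, and DNA copy number in the S-phase cells was not measured.

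A region was called when its total differed at least 2-fold between S phase and G1, both strands went in that direction and either library held 50 reads or more. Of 1101 such receptor regions, 26 were called higher in S phase (2.36%) and 105 lower (9.54%). Among all 13454 protein-coding regions of that depth, 1.34% were called higher and 1.23% lower. The 50 reads were not scaled to depth, and the G1 library was deeper, so regions reached them more easily in G1. The rule thus favoured lower calls, for receptor and other regions alike, and the numbers called higher and lower are not on an equal footing. Small regions pass a fold rule more easily: among regions of at most 10 kb, 2.87% of receptor regions were called higher and 11.1% lower, against 6.08% and 3.42% of the other protein-coding regions. The share of receptors called higher therefore lay below that of other genes of like size, and the share called lower above it. Of the 105 regions called lower, 89 were Olfr, 14 Vmn1r and 2 Vmn2r, spread over 32 clusters, and 26 of them had an interval below 1 when each position was counted once. Of the 26 called higher, 7 had such an interval above 1.

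**Figure D2:**
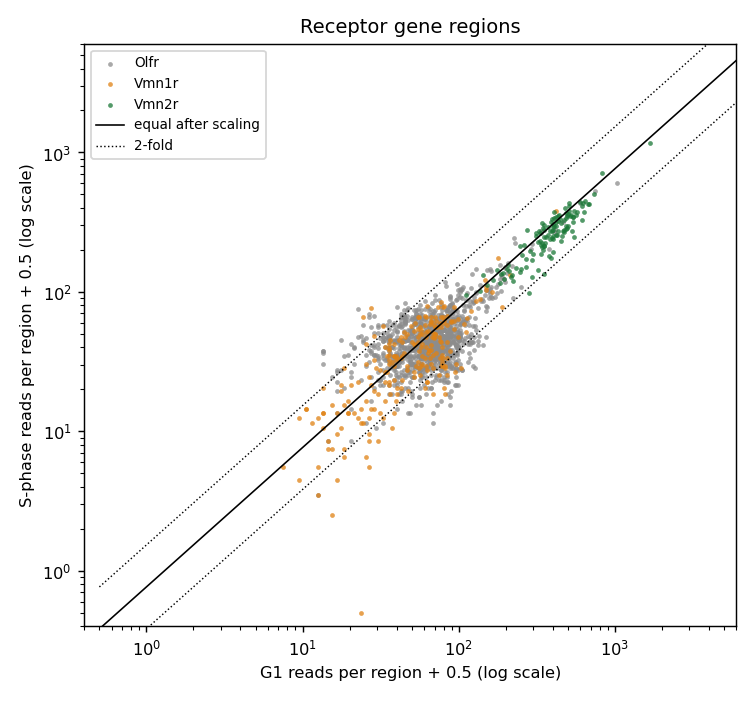
Reads per receptor region in S phase (vertical) against G1 (horizontal), both plus 0.5 on log scales, for 1080 Olfr, 229 Vmn1r and 121 Vmn2r regions. The solid line marks equal values after scaling and the dotted lines a 2-fold difference, and most Vmn2r regions, which are longer, lie on the G1 side of the solid line.

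The summed ratios of the families had overlapping intervals when all reads were counted, but those of Olfr and Vmn2r were apart when each position was counted once. With all reads, Olfr regions had a ratio of 0.892 (0.882 to 0.902), Vmn1r regions 0.914 (0.889 to 0.939) and Vmn2r regions 0.885 (0.872 to 0.897), with median log2 ratios of -0.17, -0.15 and -0.16. With each position once, Olfr was at 0.923 (0.904 to 0.941), Vmn1r at 0.873 (0.835 to 0.914) and Vmn2r at 0.846 (0.826 to 0.865). The median log2 ratios were then -0.07, -0.21 and -0.24, so the families were less alike. Vmn2r genes have several exons and long introns, and their regions held a median of 271 S-phase and 395 G1 reads. In this best-measured family 95 of 121 regions lay below 0 and 51 (42.1%) had an interval below 1, against 4 (3.31%) with an interval above 1. Among all other protein-coding regions 10.8% had an interval below 1 and 40.4% one above it. The other families were more evenly split. Of the regions with a mean of at least 10 reads, 671 of 1079 Olfr and 125 of 224 Vmn1r regions lay below 0. Class I olfactory receptors, the class also found in fish, lie almost wholly on chromosome 7 (123 of 124 genes). Their ratio was 0.938 (0.907 to 0.971), against 0.886 (0.875 to 0.896) for class II and 0.906 (0.875 to 0.939) for class II regions of chromosome 7, so that class I and its chromosome's class II overlapped in their intervals. Single class I regions were nearly evenly split, with 55 above and 65 below 0 and a median log2 ratio of -0.06. In class II, 347 lay above and 594 below, with a median of -0.18.

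Among regions with at least 100 reads in both libraries together, the highest ratio was at Vmn1r36, with 76 S-phase and 27 G1 reads, a ratio of 3.68 (2.35 to 5.95). These reads lay on 26 positions in S phase and 9 in G1. The next were Olfr1432 with 77 and 40 reads (2.52), Olfr472 with 82 and 45 (2.39), Olfr970 with 73 and 44 (2.17), Olfr211 with 69 and 42 (2.15) and Olfr524 with 76 and 47 (2.12). Counted by positions, only Vmn1r36 among these 6 kept an interval above 1, at 2.746 (1.247 to 6.661). These 6, and the 6 lowest given next, were chosen by ratio from 904 regions, so intervals away from 1 follow in part from the choice. Olfr970 was not called, since its plus strand held 24 S-phase and 35 G1 reads.

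The lowest ratio was at Olfr944, with 15 S-phase and 87 G1 reads on 9 and 21 positions, a ratio of 0.226 (0.121 to 0.393). Olfr135 followed with 17 and 88 reads (0.253), Olfr776 with 18 and 85 (0.277), Olfr934 with 19 and 89 (0.279), Olfr854 with 21 and 98 (0.280) and Olfr1312 with 21 and 96 (0.286). All 6 were called lower and are class II olfactory receptors, and Olfr944, Olfr776 and Olfr854 also had an interval below 1 by positions. Olfr944 and Olfr934 lie in the same cluster on chromosome 9. Vmn1r188 was the only region without an S-phase read, against 23 G1 reads on 8 positions, 20 of the reads on the minus strand. With 3 reads as the floor of the S-phase library this is 5.86-fold lower by reads. It is not a firm bound, because the G1 reads share positions, and the region had too few reads to be called.

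Most receptors with a known ligand or long use in the field had a ratio below 1, and some lay above it. Olfr2, the octanal receptor known as I7, had 38 S-phase and 54 G1 reads (0.921), and Olfr73, the eugenol receptor mOR-EG, had 35 and 60 (0.764). Olfr16, known as MOR23 and activated by lyral, had 20 and 56 reads, a ratio of 0.467 (0.266 to 0.791), and was the one of these regions that was called. Its neighbours in the order were Olfr545, which binds azelaic acid, with 15 and 53 reads (0.370), and Olfr17, known as P2, with 28 and 68 (0.539), and their intervals overlap that of Olfr16. Olfr160, known as M72 and activated by acetophenone, had 61 and 45 reads, a ratio of 1.77 (1.19 to 2.67), the highest of this group. Olfr1507, known as MOR28, had 74 and 70 reads (1.38) and Olfr1019, which responds to the fox odour TMT, 40 and 70 (0.748). Olfr15 had 40 and 83 reads (0.631).

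Olfr78, which responds to short-chain fatty acids, was merged with Olfr560, and the region had 225 S-phase and 229 G1 reads, a ratio of 1.29 (1.07 to 1.55). Olfr558, a receptor of isovaleric acid, was merged with Olfr557 and Olfr33, with 160 and 206 reads (1.02). Among vomeronasal receptors, Vmn1r49, which responds to 2-heptanone, had 41 and 66 reads (0.813). Vmn1r85 and Vmn1r89, receptors of sulfated steroids, had 62 and 80 reads (1.01) and 29 and 38 reads (0.999). Vmn2r1, which is broadly co-expressed with other type 2 receptors, was merged with Vmn2r2 and had 1166 and 1671 reads, a ratio of 0.913 (0.847 to 0.985). Vmn2r26, a receptor of MHC-binding peptides, had 380 and 504 reads (0.987) and Vmn2r116 had 171 and 271 (0.826). Apart from Olfr15, Olfr16, Olfr17, Olfr545, Olfr78, Olfr160 and Vmn2r1, all of these regions had intervals that hold 1.

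The densest well-covered region in S phase was Vmn2r49, with 0.925 RPM per kb in S phase and 1.03 in G1, a ratio of 0.900 (0.787 to 1.03). Olfr866 had 0.872 and 0.740 RPM per kb, Vmn1r237 had 0.840 and 0.588, Olfr1121 had 0.817 and 0.504, and Olfr472 had 0.809 and 0.339. These 5 were chosen for their S-phase density, so the order between the libraries follows in part from the choice.

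Receptor genes were joined into clusters where neighbours were less than 500 kb apart, and clusters of at least 3 genes were kept. The 50 clusters held 1424 genes in 54.8 Mb, and 30 genes lay outside them. The median cluster ratio was 0.934, and 39 of 50 clusters lay below 1, 29 of them with their interval, while 6 had an interval above 1 and 15 held 1. Of the 19 clusters with at least 25 genes, 18 lay below 1, 15 of them with their interval. The 30 regions outside clusters had a ratio of 0.985 (0.931 to 1.04), with 15 above and 15 below 0 on the log2 scale.

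Setting each cluster against the 500 kb on either side gave a larger difference. Against a median flank ratio of 1.08, 43 of 50 clusters lay below their flanks, 39 of them with the interval, against 4 above with the interval. The median of cluster over flank was 0.883, from 0.7625 to 1.102. Across the 50 clusters the Spearman correlation of the ratio with the flank ratio was 0.310 and with the number of genes -0.284, which describe sites measured in the same libraries.

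**Figure D3:**
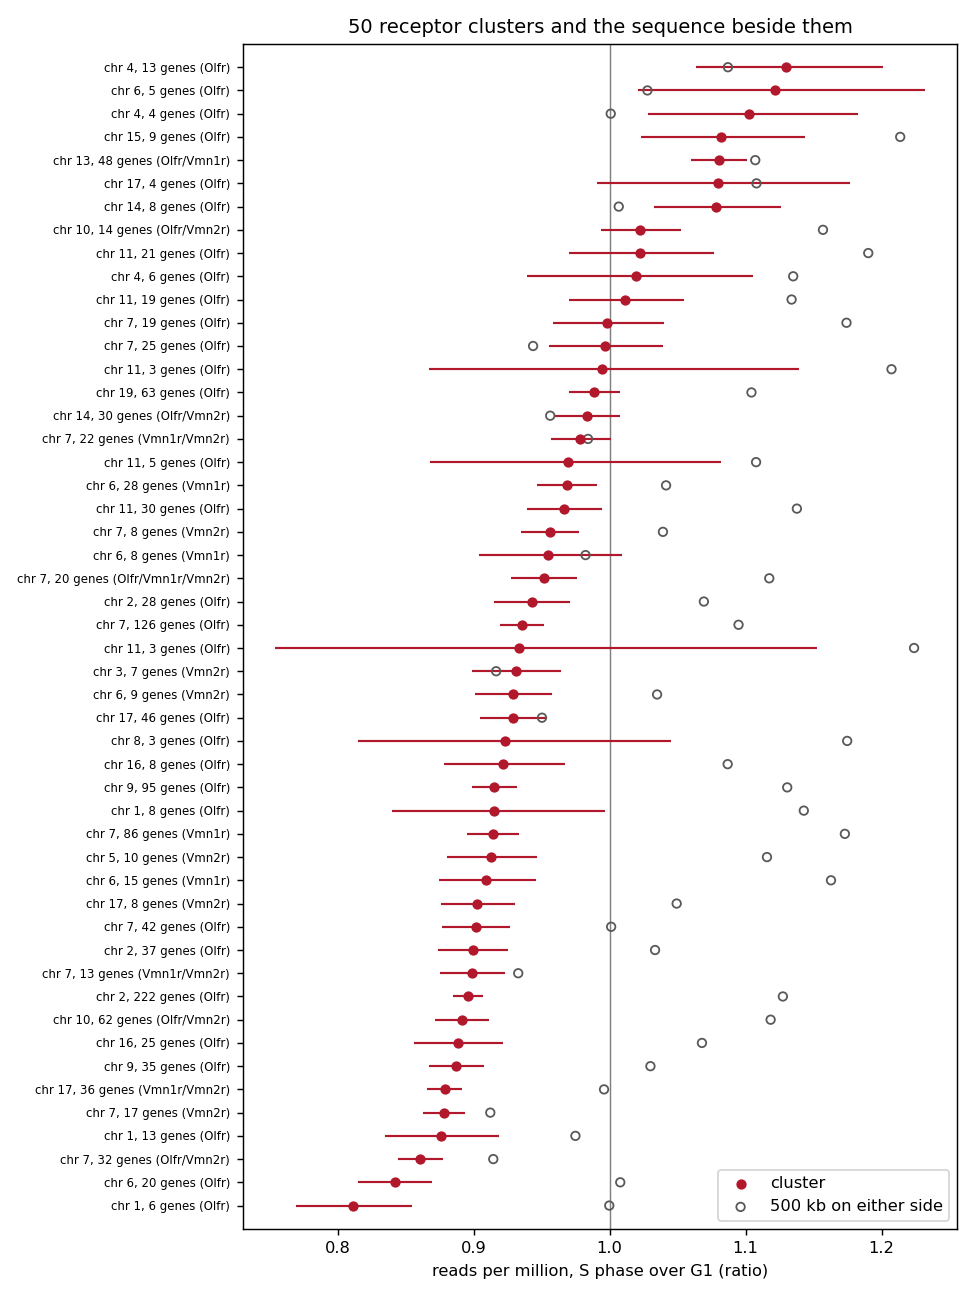
Ratio of RPM, S phase over G1, for each of the 50 receptor clusters (filled, with the exact 95% interval) and for the 500 kb on either side of it (open), ordered by ratio. Filled points lie left of the open ones in 43 clusters.

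The lowest cluster was a group of 6 Olfr genes on chromosome 1 that begins with Olfr16 (chr1:172954768-173273137), with 2264 S-phase and 3654 G1 reads, a ratio of 0.811 (0.769 to 0.855). Next came 20 Olfr genes on chromosome 6 (chr6:42458076-43238575) at 0.842 (0.815 to 0.870) and 32 Olfr and Vmn2r genes on chromosome 7 (chr7:84851571-87039968) at 0.861 (0.844 to 0.878). The flanks of these 3 were at 1.00, 1.01 and 0.914. Among clusters of at least 100 kb the highest were both on chromosome 4, with 13 genes (chr4:118663519-118936840) at 1.130 (1.063 to 1.201) and 4 genes (chr4:52823399-52973567) at 1.103 (1.028 to 1.182), followed by 9 genes on chromosome 15 (chr15:98184011-98500406) at 1.08 (1.02 to 1.14). Chromosome 4 was also the only one on which receptor regions lay above the rest of their chromosome with their interval, at 1.09 times (1.01 to 1.18). Receptor regions lay below the rest of their own chromosome on 13 of 18 chromosomes, on 12 of them with the interval.

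The largest cluster holds 222 Olfr genes on chromosome 2 (chr2:85328967-90403674) and had 43799 S-phase and 64013 G1 reads, a ratio of 0.896 (0.885 to 0.907) against 1.13 in its flanks. In 51 windows of 100 kb along it, 43 lay below 1, 30 of them with their interval, and the median was 0.902. The lowest window lay 1500 to 1600 kb from its first base, with 835 S-phase and 1455 G1 reads (0.751). Of 20 windows in the 1000 kb on each side, 3 lay below 1, and their median was 1.15. Density inside the cluster ranged from 0.307 to 0.507 RPM per kb in S phase and from 0.306 to 0.553 in G1.

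**Figure D4:**
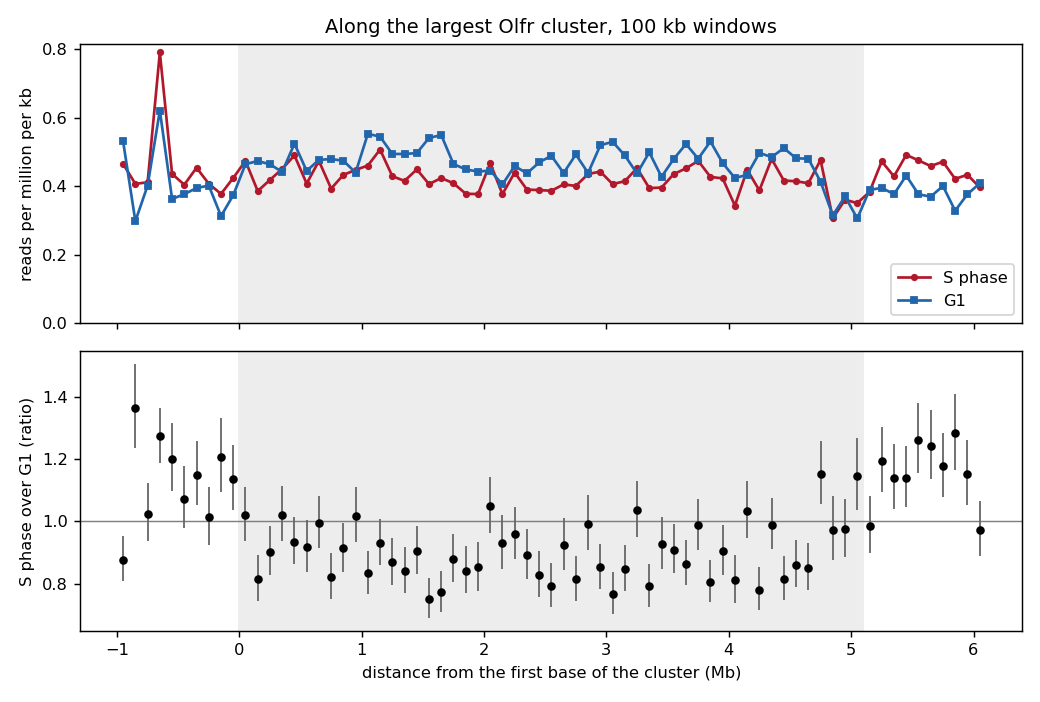
RPM per kb (top) and the ratio of S phase over G1 with its exact 95% interval (bottom) in 100 kb windows along the 222-gene Olfr cluster of chromosome 2 (shaded) and 1000 kb on each side. Windows in the shaded part mostly lie below a ratio of 1, and those beside it mostly above.

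The other large clusters of the order were mostly alike. The cluster with 126 mostly class I genes on chromosome 7 (chr7:102474773-105371317) was at 0.935 (0.919 to 0.952), the chromosome 9 cluster with 95 genes (chr9:37709348-40190094) at 0.915 (0.899 to 0.932) and the chromosome 10 cluster with 62 genes (chr10:128987914-130499379) at 0.891 (0.871 to 0.911). The 63-gene cluster on chromosome 19 (chr19:11826077-13921972), which also holds Osbp and Zfp91, was at 0.989 (0.970 to 1.01). The exception among clusters of at least 25 genes was one of 48 Olfr and Vmn1r genes on chromosome 13 (chr13:21070349-23252323) at 1.080 (1.060 to 1.101), which is interleaved with replication-dependent histone genes. The receptor regions of chromosome 13 alone were at 1.01 (0.954 to 1.07). The 24 histone genes inside clusters, merged into 9 regions, had a ratio of 1.45 (1.35 to 1.54).

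The 86-gene Vmn1r cluster on chromosome 7 (chr7:20099158-24057691) had the lowest density, 0.189 RPM per kb in S phase and 0.207 in G1, against medians of 0.386 and 0.411 over all clusters. Its ratio was 0.914 (0.895 to 0.933). It was the only cluster with empty 10 kb windows, 4 of 395, and 5 of the 6 receptor regions below the minimum of 10 reads lie in it: Vmn1r111, Vmn1r138, Vmn1r139, Vmn1r155 and Vmn1r256. All 36-base words of the start windows of these 5 also occur in the window of another gene, and how reads that match several places were counted is not given in the sources used here. Over all families, the 122 regions whose start window shares at least 50% of its 36-base words with another had a median density of 0.227 RPM per kb in S phase and 0.279 in G1, against 0.404 and 0.450 in 1122 regions with less sharing. Of the 122 regions, 74 were Vmn1r. The ratios were 0.875 (0.854 to 0.897) and 0.896 (0.887 to 0.904), so sharing moved with the density much more than with the ratio.

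Within clusters the receptor genes were lower in ratio than the sequence between them. Receptor genes with their flanks were at 0.889 (0.882 to 0.897), other protein-coding genes in the clusters at 1.06 (1.05 to 1.08) and sequence with neither at 0.929 (0.925 to 0.934). Receptor genes over that remaining sequence gave 0.957 (0.949 to 0.965). In 38 of 50 clusters the receptor regions lay below the rest of their cluster, but that rest includes the other protein-coding genes. No such count was made against sequence with neither. The density of receptor genes was higher than that of sequence with neither in both libraries. It was 0.410 against 0.372 RPM per kb in S phase and 0.461 against 0.4001 in G1. Receptor pseudogenes, 581 genes in 553 merged regions, had a ratio of 0.909 (0.898 to 0.920) and a median log2 ratio of -0.16, the same to 2 decimals as that of the protein-coding receptors.

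Receptor clusters were compared with the rest of the genome in 100 kb windows. The 547 windows with at least 50% of their length in a cluster had a median log2 ratio of -0.11 (-0.12 to -0.09), against 0.01 for the 23473 other windows. Intervals of such medians come from the ranks of the windows and not from Poisson counts. They take neighbouring windows of the same libraries as independent and say nothing about replicates. In receptor clusters 8.96% of windows had a ratio of at most 0.8 and 1.83% one of at least the inverse of 0.8, while the shares were 5.14% and 7.38% over all windows. Windows in megabases without any protein-coding gene were lower still, at -0.17, and those in megabases with at least 21 such genes were at 0.20. The 4 Hox clusters, also silent in many cell types but rich in GC, had a ratio of 1.17 (1.12 to 1.23).

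The number of other genes in the megabase moved with the receptor windows too. Receptor windows in megabases with 0 to 2 other protein-coding genes had a median of -0.18, those with 3 to 9 had -0.11 and those with at least 10 had -0.01. Windows outside receptor clusters had -0.11, 0.02 and 0.14 at 1 to 2, 3 to 9 and at least 10 genes. At 3 to 9 and at least 10 genes the receptor windows lay below the others. The lowest steps are unlike, because only the receptor step takes in megabases with 0 other genes. Gene-free windows outside clusters were at -0.17 (rank interval -0.18 to -0.16), beside -0.18 (-0.20 to -0.15) for that receptor step. Whether these sets differ was not tested. Each set had higher ratios where more other genes lay nearby. The GC content of start windows also differs between the sets. Where that content was at most 48.3% the 1166 receptor regions had a median log2 ratio of -0.17 and the 1888 other regions 0.01. This cut does not match receptor and other regions in GC content. Over all start windows the receptor median was 35.7%, while the 10th percentile of the other protein-coding genes was 44%. The other regions under the cut were also longer in the median, and length was not matched. The part of gene density or base composition in the lower ratio of receptors was not tested further.

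**Figure D5:**
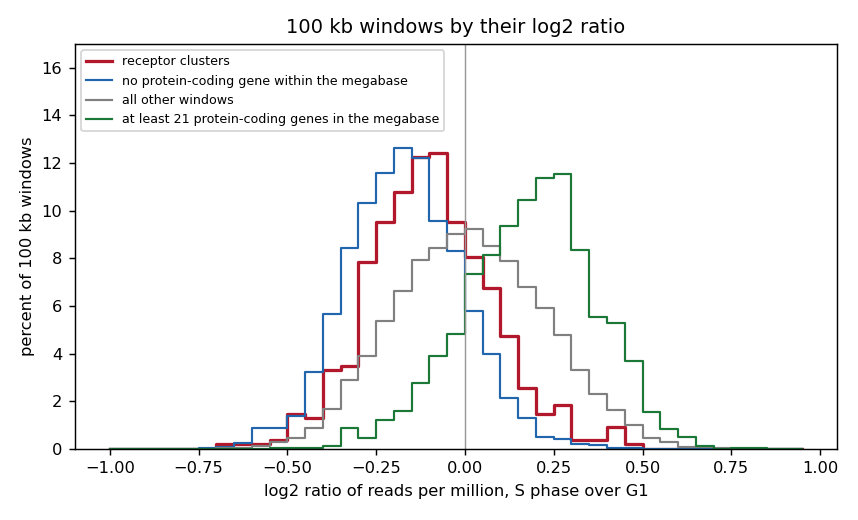
Share of 100 kb windows by log2 ratio, S phase over G1, in steps of 0.05, for windows in receptor clusters, in megabases without a protein-coding gene, in all other windows, and in megabases with at least 21 protein-coding genes. Receptor windows have their median at -0.11, between gene-free windows at -0.17 and other windows at 0.01.

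Reads of receptor regions were evenly split between the strands: the plus strand took 50.2% in S phase and 49.9% in G1. Vmn1r regions were at 52.2% in both libraries. Over 1101 regions with enough reads the plus share in S phase exceeded that in G1 by a median of 0.485 percentage points, and 42 regions had at least 80% of their S-phase reads on 1 strand, against 35 in G1. Stacks of at least 10 reads on a base held 0.986% of receptor reads in S phase and 8.21% in G1, against 3.41% and 9.80% in other protein-coding regions, and no stack of 20 reads was found in S phase.

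Other gene groups were given from lists, in which neighbouring genes whose flanks overlap share reads. A list of 81 other chemoreceptor genes was taken by symbol alone (Taar, Tas2r, Tas1r, Fpr and Ms4a). Of these, 58 had a log2 ratio below 0 and the median was -0.19. Its 21 Ms4a genes went the other way, with 12 above and 9 below 0 and a median of 0.19. The 35 bitter taste receptor genes (Tas2r) were the low part of this list, with 1295 S-phase and 2568 G1 reads over 32 merged regions, a ratio of 0.660 (0.617 to 0.706), and 33 of 35 genes below 0. Tas2r110 was the lowest, with 28 and 116 reads (0.316), and Fpr-rs3, a formyl peptide receptor of the vomeronasal organ, the highest, with 37 and 25 (1.94). The 15 trace amine-associated receptors (Taar) had a median log2 ratio of -0.05.

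The 28 genes of olfactory signalling and receptor choice, which are scattered over the genome, went the other way, with 21 above and 7 below 0 and a median of 0.16, close to the 0.14 of all other protein-coding regions. Emx2, a homeodomain factor of the olfactory epithelium, had 77 S-phase and 53 G1 reads (1.90), and Ldb1, the cofactor that links receptor enhancers, had 259 and 223 (1.52). Lhx2, its homeodomain partner at these enhancers, had 233 and 312 reads (0.977), and Gng8, a G protein subunit of vomeronasal neurons, was lowest with 46 and 75 (0.803).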

How the data were processed

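Per the file headers, the authors deposited 1 bedGraph track per library and strand, and the 4 deposited files hold raw counts of read ends at each base. The submitters' processing notes list Bowtie 1.1.2, SAMtools 1.11, bedtools and mm10. The handling of duplicates and of reads matching several places is not given in the sources used here, and either can change stacks and the density of near-identical receptors. Counts were summed per region and scaled to the total on chromosomes 1 to 19 (Python 3.11.15, numpy 2.4.6, pandas 2.3.3), with exact conditional Poisson intervals at 95% (scipy 1.17.1) and plots by matplotlib 3.10.9. Intervals of medians were taken from binomial ranks at 95%. Log2 ratios use a pseudocount of 1 on scaled counts. Gene positions were those of RefSeq (GRCm38.p6), and 4 receptor genes without a chromosome position were left out. The text names the 6 highest and 6 lowest of 904 regions with at least 100 reads, the 5 densest, listed known receptors, large clusters and the extremes of the lists. The listed receptor Olfr151 was not matched. Olfactory classes follow the MOR family numbers (1 to 42 for class I). Scripts were tested on simulated data. Members, lists and thresholds were chosen with earlier results of these data known.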

Additional observations from a re-analysis of the deposited data

How the results depend on the processing

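Of 120 values recomputed under alternatives, 91 moved by less than their interval (counts by less than 1.5 times), 29 moved by more, and none changed direction. Some of them could not: a common scaling cancels in differences of medians and in ratios over flanks, and counts have no direction. Setting the median protein-coding gene to a ratio of 1 lowered the summed receptor ratio to 0.820, the median log2 ratio of regions to -0.28, that of 100 kb windows in clusters to -0.23 and the median cluster ratio to 0.860. The difference of medians between receptor and other regions, -0.30, cannot change here, because a common scaling cancels in it. Counting each position once gave -0.16 for the windows in clusters and brought them within 0.0124 of the gene-free windows, against 0.0637 with all reads, and the cause was not tested. Requiring 50 reads in the mean gave a median log2 ratio of -0.20. A 1.5-fold rule called 75 regions higher and 243 lower, and a minimum of 100 reads called 0 higher and 26 lower. The shares among other protein-coding regions were not computed under these rules, so these counts have no background beside them. At 100 unscaled reads few receptor regions could be called higher. Those of at most 10 kb held at most 117 reads in S phase, against 177 in G1, and longer ones had 0 higher calls even at 50 reads. Against their flanks, clusters were at a median of 0.903 with 200 kb flanks, 0.901 with 1 Mb flanks and 0.905 when joined at gaps under 200 kb. At 5 and 20 times the surroundings, 121 and 9 peaks were found in clusters in S phase, and stacks of at least 5 and 20 reads held 32.6% and 0% of S-phase receptor reads. Added after the data were seen, leaving out the 122 regions with shared start windows gave a summed ratio of 0.893, leaving out the 86-gene Vmn1r cluster 0.892 and leaving out chromosome 7 0.888. Leaving out receptors of near-identical protein sequence was not run, because no protein table was used here. No paired analysis was possible because there is 1 library per condition, and for the same reason no replicate could be left out. Depth limits single Olfr and Vmn1r regions most, with median S-phase counts of 43 and 33. Of 1080 Olfr regions, 139 (12.9%) had an interval above 1 and 270 (25.0%) one below it. Of 229 Vmn1r regions, 17 (7.42%) and 44 (19.2%) did. The shares were 25.9% and 12.2% among other protein-coding regions of at most 10 kb, and 40.4% and 10.8% among all other protein-coding regions.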

Other observations

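The 7 receptor genes on the X chromosome, which the member rule leaves out, had 152 S-phase and 279 G1 reads, a ratio of 0.713 (0.581 to 0.872), against 0.942 for the X chromosome as a whole. Vmn2r121 had the most reads of the 7, with 55 in S phase and 138 in G1 (0.522). Olfr1324 had 6 and 32 reads (0.245), while Olfr1320, Olfr1322 and Olfr1323 had ratios of 1.13, 1.41 and 1.66 with intervals that hold 1.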
